A study of Venturia canescens with 18 samples.

Results

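Head transcriptomes of courted and of isolated females of the parasitoid wasp Venturia canescens were compared over 9 pools of heads. The 6 courted pools were 3 pools of females boxed with a brother, an incompatible mate, and 3 pools of females boxed with an unrelated male, a compatible mate. The 3 control pools were females boxed with no male. These pools were chosen by their labels alone and are all of the series: each was sequenced as 2 technical libraries that were summed, so the 18 libraries of 18 in the series all entered. The females of every group were virgin and newly emerged, came from wasps of French orchards kept on the moth Ephestia kuehniella and fed honey water, and were assigned to a group at random. Each was alone in a box, or with her male, for at most 10 min. The labels give 10 heads pooled for each condition, without stating if that is per replicate. Nothing says that pools stem from separate families or days, and p-values thus reflect no more than the variation among these particular pools. The pools held different females, and a difference between the females used cannot be told apart from courtship.

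In wasps, unfertilised eggs become males and fertilised eggs normally become daughters. Under complementary sex determination, a fertilised egg that carries matching alleles of the sex locus becomes a diploid male in place of a daughter, which is a cost of mating with a brother. The insect head holds the brain, the eyes and the antennae, with which parasitoid females sense a courting male's odours and contact. Sensory stimulation is known to raise immediate-early genes of insect neurons within minutes, ahead of slower changes in other transcripts. Setting both courted groups against isolation asks what being courted changes, whichever male does it.

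The 9 pools held 62341897 to 103527471 counts, from libraries of 22079293 to 67940613. The loci are transcribed regions with XLOC identifiers, the form in which the assembler Cufflinks labels them. Of 16752 loci, 540 had no count in any library. The file pairs none of them with a gene name, and 0 of the identifiers were found in RefSeq's table of genes for this wasp, so no role, sequence or tissue marker could be given and no pathway was read out. In bulk heads, fewer cells of a type and less RNA per cell cannot be told apart. Brother pool 1 stood apart. Along the leading principal component of the log2 CPM values (counts scaled to library size with TMM factors), with 44% of the variance, it scored 88.65, and the other 8 pools scored between -28.25 and 11.36. The contrast was therefore fitted with all 9 pools and with the 8 pools that leave it out.

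With all 9 pools, 170 of 15486 loci differed between the mean of the courted groups and isolation, which is 1.1% of the loci tested (edgeR quasi-likelihood test, Benjamini-Hochberg adjusted p under 0.05). Of these, 40 (0.258%) were higher and 130 (0.839%) lower after courtship. The changes of the higher loci were small. For 22 of the 40 the change was under 1.5-fold, for 12 it was 1.5- to 2-fold and for 6 it was 2- to 8-fold. Among the 130 lower loci, 93 differed by under 2-fold, 14 by 2- to 8-fold and 23 by over 8-fold. Over all loci tested the median log2 change was 0.00302, which the TMM scaling sets near 0, so an overall shift of expression could not be seen in these values.

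A mean over the courted groups can be carried by either of them. A locus was counted as changed alike when both courted groups differed from isolation in the same direction and the smaller log2 change was at least 0.5 of the larger. By this measure 130 of the 170 called loci changed alike, 38 of the 40 higher loci and 92 of the 130 lower loci. Loci both called and changed alike were 0.839% of those tested, 0.245% higher and 0.594% lower. Of the 40 other called loci, 36 moved unevenly in one direction, with the brother group further from isolation in all 36, and 4 had opposite signs. The share of all loci tested that met this measure, called or not, was not taken. The call rests on the mean of 2 changes that share the isolated pools, so 130 of 170 is a description. Few loci lay close to the 0.5 limit, with 5 just under it (0.45 to 0.5) and 3 just over it (0.5 to 0.55). The loci that changed alike differed modestly. The higher 38 had a median log2 change of 0.51 and ranged from 0.24 to 2.31. The lower 92 had a median of -0.45 and ranged from -1.42 to -0.29. None of the 130 differed by over 8-fold, whereas 20 of the 36 uneven loci did. The levels were taken over all pools. The 130 had a median of 58.9 CPM, the 36 uneven loci one of 1.18 CPM and all loci tested one of 7.38 CPM.

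**Figure D1:**
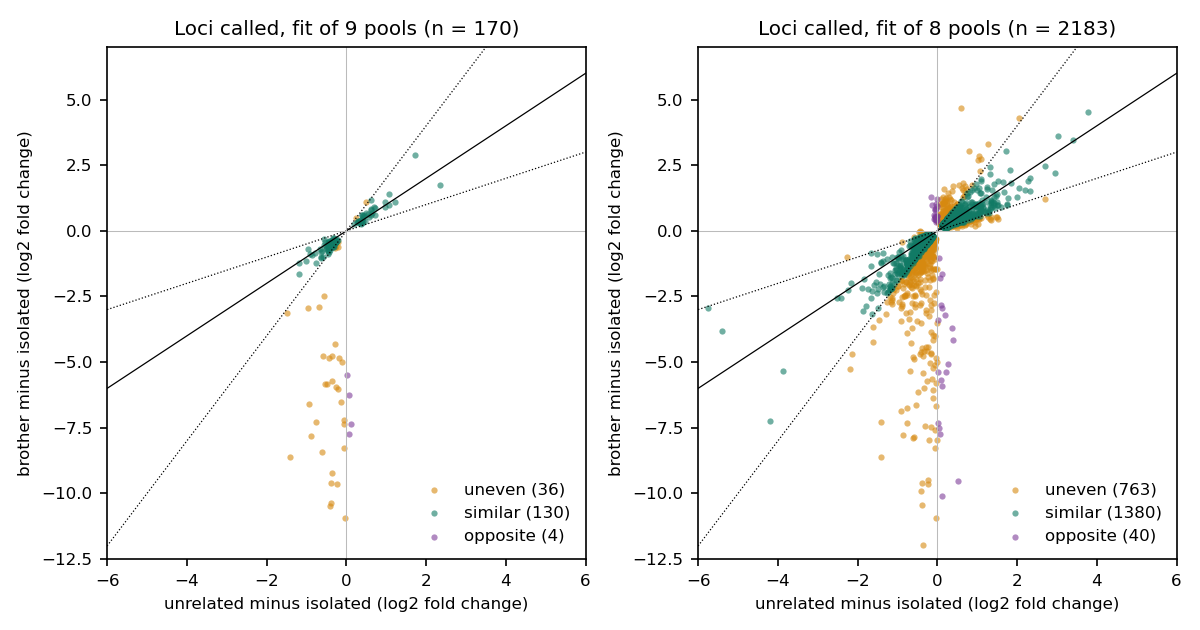
Log2 change against isolation after courtship by an unrelated male (x axis) and by a brother (y axis) for each locus called in the courted-minus-isolated contrast, with 9 pools (left) and without brother pool 1 (right). The solid line marks equal changes and the dotted lines a ratio of 0.5; the 130 and 1380 loci that changed alike lie between the dotted lines. Of the 36 uneven loci of the left panel, the 34 lower ones lie below the dotted lines, at a median log2 change of -5.89 on the brother axis and -0.36 on the unrelated axis, and the 2 higher ones lie above them.

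Both kinds of courted female share the isolated pools, so the changes of the 2 groups are not independent of each other. The contrast of brother with unrelated pools uses no isolated pool, although it shares the estimate of spread. In that contrast 60 of the 170 loci (35.3%) had an unadjusted p under 0.05, against 6.89% of all loci tested. Of the 40 higher loci 4 had such a p and 0 passed an adjusted p of 0.05 in edgeR. Of the 130 lower loci 56 had such a p and 26 passed, against 0.194% of all loci tested, each of them lower after courtship by a brother than by an unrelated male. For 111 of the 170 loci the 95% interval of brother minus unrelated lay within 0.5 log2 units of 0, as it did for 42.3% of all loci tested. These were 31 of the 40 higher and 80 of the 130 lower loci.

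The most abundant loci among those that changed alike show what these changes looked like in single pools. XLOC_000321, which ranked 84 of 15486 by its level in isolated pools, stood at 969, 1260 and 1010 CPM in isolated pools 1 to 3. It stood at 1710, 2170 and 1910 CPM in brother pools 1 to 3 and at 1780, 1530 and 1630 CPM in unrelated pools 1 to 3. All 6 courted pools lay above all 3 isolated pools, and isolated pool 2 was the nearest to them. The log2 change was 0.72 ± 0.11 (SE), with an adjusted p of 0.0351 in edgeR. After a brother it was 0.84 ± 0.13 and after an unrelated male 0.61 ± 0.13, and the 2 differed by 0.23 with a 95% interval of -0.06 to 0.51. Without brother pool 1 the change was 0.76 ± 0.094 (edgeR adjusted p = 0.00209). The first and second technical libraries taken alone gave 0.74 and 0.71.

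XLOC_014286 was the most abundant of the lower loci that changed alike, at rank 45. It stood at 1670, 1410 and 1740 CPM in isolated pools, at 709, 916 and 795 CPM in brother pools and at 1040, 1060 and 1020 CPM in unrelated pools, each in the order of pools 1 to 3. The groups did not overlap, and the 3 unrelated pools lay between the brother and the isolated pools. The log2 change was -0.81 ± 0.092 (SE; edgeR adjusted p = 0.0202) with 9 pools and -0.77 ± 0.073 with 8 (edgeR adjusted p = 0.00075). It was -0.995 ± 0.11 after a brother and -0.63 ± 0.11 after an unrelated male. Brother minus unrelated it was -0.37, with a 95% interval of -0.61 to -0.12 and an adjusted p of 0.496 in edgeR.

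The loci with the largest changes shared by both groups were rarer. They were picked among loci whose courted pools all lay outside the isolated range, so that separation was fixed by the choice. XLOC_007069 stood at 3.06, 2.39 and 2.94 CPM in isolated pools, at 1.08, 0.687 and 0.902 CPM in brother pools and at 1.18, 1.45 and 1.05 CPM in unrelated pools. Its highest courted pool was thus well under its lowest isolated pool, and the log2 change was -1.42 ± 0.2 (SE; edgeR adjusted p = 0.0317) with 9 pools and -1.50 ± 0.18 with 8 (edgeR adjusted p = 0.00199). XLOC_014437 stood at 6.34, 5.31 and 6.16 CPM in isolated pools, at 3.7, 1.8 and 2.14 CPM in brother pools and at 2.94, 2.84 and 2.06 CPM in unrelated pools. Brother pool 1 was its highest courted pool, and without that pool the log2 change went from -1.20 ± 0.23 (edgeR adjusted p = 0.0498) to -1.39 ± 0.15 (edgeR adjusted p = 0.00116).

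The largest shared rises rested on few counts. XLOC_006986 had 11, 23 and 13 counts in isolated pools, 35, 41 and 69 in brother pools and 72, 109 and 77 in unrelated pools. In CPM the isolated pools lay between 0.177 and 0.264 and the courted pools between 0.444 and 1.36, a log2 change of 2.05 ± 0.38 (SE; edgeR adjusted p = 0.0489) with 9 pools and 2.17 ± 0.34 with 8 (edgeR adjusted p = 0.00469). XLOC_014035 had 3, 5 and 6 counts in isolated pools, 29, 36 and 33 in brother pools and 15, 14 and 25 in unrelated pools, a log2 change of 2.31 ± 0.36 (SE; edgeR adjusted p = 0.0351) with 9 pools and 2.39 ± 0.38 with 8 (edgeR adjusted p = 0.00527). For this locus the 3 brother pools, at 0.367 to 0.562 CPM, also lay above the 3 unrelated pools, at 0.175 to 0.236 CPM. Brother minus unrelated it differed by 1.16, with a 95% interval of 0.37 to 1.95 (edgeR adjusted p = 0.511). The calls of these 6 loci with 9 pools (XLOC_000321, XLOC_014286, XLOC_007069, XLOC_014437, XLOC_006986 and XLOC_014035) were all lost without isolated pool 1, isolated pool 3, brother pool 3, unrelated pool 2 or unrelated pool 3, with edgeR adjusted p from 0.054 to 0.311, and none changed direction. Without unrelated pool 1 the call of XLOC_014286 held and the other 5 were lost, and without isolated pool 2 those of XLOC_006986, XLOC_014035 and XLOC_014437 were lost (edgeR adjusted p from 0.0585 to 0.102).

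The technical libraries carry different run names in the labels, 1 run for the first and 1 for the second of each pool. The contrast was fitted in each run alone for 165 of the 170 loci, and all 165 had the same direction in both runs. Their log2 changes differed between runs by a median of 0.042 and by at most 1.63. The loci were called from the sum of both runs, so the shared direction is partly set by that choice. Levels, in CPM of each library's own total, differed by over 4-fold between runs in all 9 pools, in the same direction, for 4 of the 15486 loci tested, for 0 of these 170 and for 2 of the 2177 called with 8 pools and tested with both sets. Both runs read the same pools, so they show technical error and not the spread between pools.

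**Figure D2:**
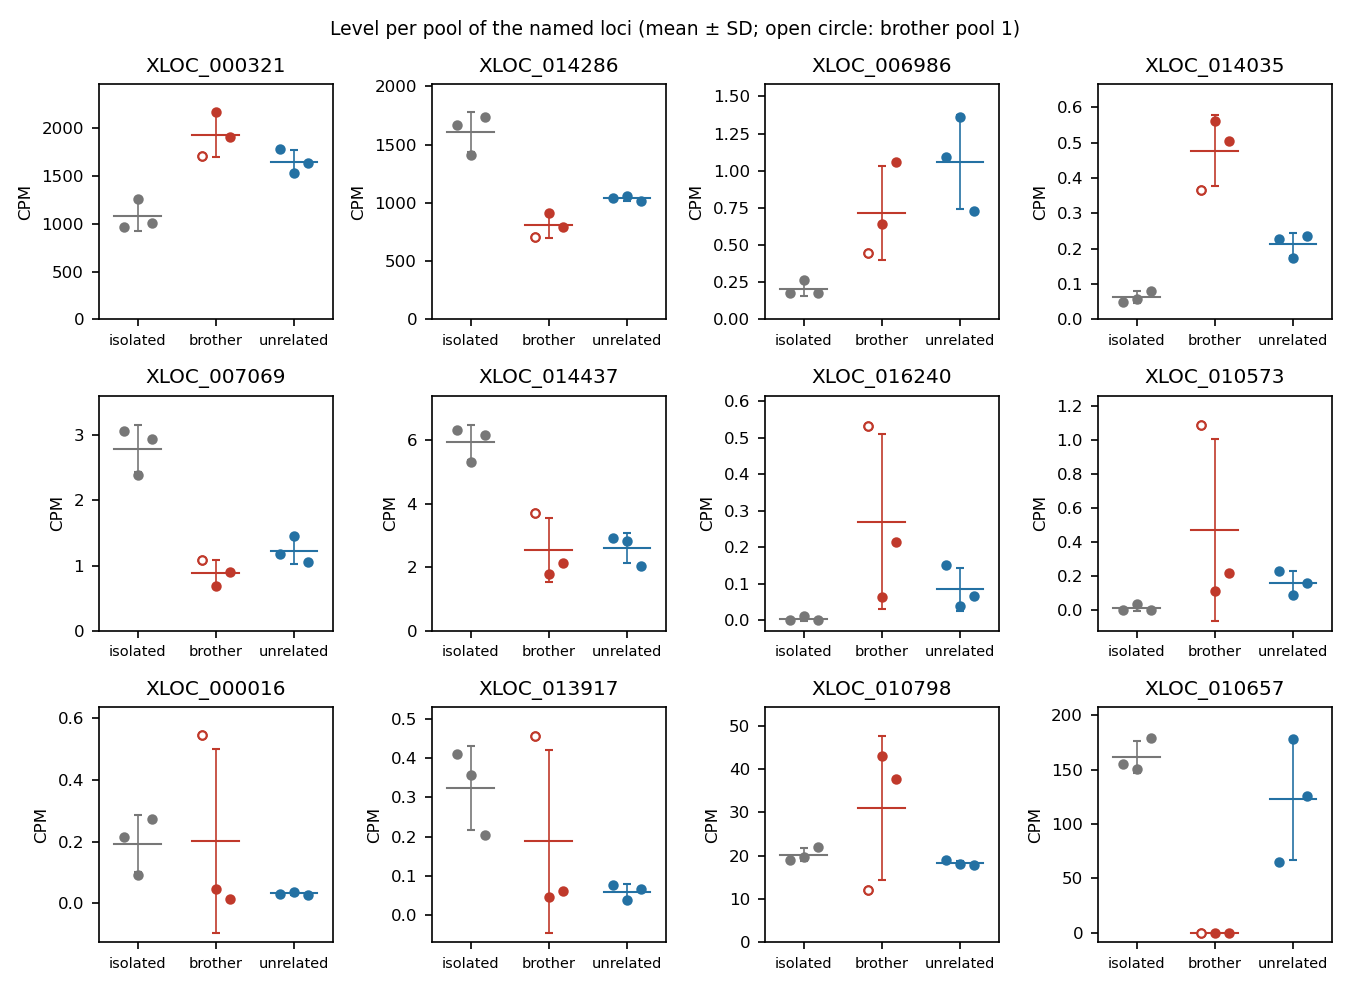
Level in each pool of the 12 loci named in the text, in CPM on linear axes, with 1 point per pool, a bar at the group mean and an error bar of 1 SD (n = 3); the open circle is brother pool 1. In XLOC_000321, XLOC_014286, XLOC_006986, XLOC_014035, XLOC_007069 and XLOC_014437 the 6 courted pools lie on one side of the 3 isolated pools, while in XLOC_016240, XLOC_010573, XLOC_000016 and XLOC_013917 brother pool 1 lies far above the other courted pools. The rule that named XLOC_006986, XLOC_014035, XLOC_007069 and XLOC_014437 required that separation. The rule that named XLOC_016240, XLOC_010573, XLOC_000016 and XLOC_013917 favours loci at which brother pool 1 deviates.

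Without brother pool 1 the same contrast called 2183 of 15533 loci, 14.1%, with 984 (6.33%) higher and 1199 (7.72%) lower after courtship. The 170 loci called with 9 pools were all among them, in the same direction. The common biological coefficient of variation was 26.3% with 9 pools and 13.7% with 8. Of the others, 2007 had also been tested with 9 pools and 6 had not. Most of the changes of these 2007 were small, at under 2-fold for 857 of the 941 higher and for 834 of the 1066 lower loci. The called loci that changed alike numbered 1380 (8.88% of those tested), with 664 (4.27%) higher and 716 (4.61%) lower. Here too the share of all loci tested that met this measure, called or not, was not taken. Thus 1380 of 2183 is a description. Their median log2 changes were 0.34 for the higher and -0.36 for the lower loci. A further 763 loci moved unevenly in one direction, of which 704 had the larger change after a brother and 59 after an unrelated male. The other 40 loci had opposite signs in the 2 groups, 21 higher and 19 lower by the mean of the groups. A call on the mean of 2 changes that share the isolated pools disfavours opposite signs, so nothing is read from this number. The line at a ratio of 0.5 ran through a continuum here, with 142 loci just under it (0.45 to 0.5) and 133 just over it (0.5 to 0.55).

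Brother and unrelated pools differed at an unadjusted p under 0.05 for 918 of the 2183 loci (42.1%), against 24.1% of all 15533 loci. An adjusted p under 0.05, reached by 4.64% of all loci, was reached by 132 of the 984 higher loci, of which 130 were higher after a brother than after an unrelated male and 2 were lower. It was reached by 214 of the 1199 lower loci, of which 211 were lower after a brother and 3 were higher. At most of these loci the brother pools were the ones further from isolation. In this fit the brother mean rests on fewer pools than the unrelated mean, so the courted mean and this difference are not independent. The call itself therefore leans toward loci whose brother pools lie further from isolation. Of the 1380 loci that changed alike, 16 passed this test. For 1026 of them (74.3%) the 95% interval of brother minus unrelated lay within 0.5 log2 units of 0, as it did for 43.8% of all loci. Since these loci were picked for similar changes, their share is a description.

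XLOC_010798, named for its small p of brother minus unrelated with 8 pools, shows how one courted group can carry the mean. It stood at 19, 19.7 and 21.9 CPM in isolated pools, at 18.9, 18.2 and 17.8 CPM in unrelated pools and at 12.1, 43.1 and 37.7 CPM in brother pools 1 to 3. Brother pools 2 and 3 were above every other pool and brother pool 1 was below all of them. These levels mix 2 runs that disagree, weighted by the depth of each. In every pool the second run read the locus higher, by 5.61- to 48.6-fold in CPM of the library's own total. In the second run alone brother pools 2 and 3 stood at 60.1 and 59.5 CPM, brother pool 1 at 19.1 CPM and the other pools at 27.4 to 40 CPM, so that the brother pools again held the top and the bottom. In the first run alone the groups overlapped, with 2.38, 8.14 and 5.57 CPM in brother pools, 0.643, 3.89 and 6.79 CPM in unrelated pools and 2.54, 5.73 and 4.34 CPM in isolated pools. The cause of the gap between the runs was not tested. With 8 pools the courted mean exceeded the isolated mean by a log2 difference of 0.43 ± 0.071 (edgeR adjusted p = 0.00574), while brother minus unrelated was 1.14 ± 0.085 (edgeR adjusted p = 0.000717). The second run alone gave 0.57 ± 0.098 and 0.90 ± 0.12 (edgeR adjusted p = 0.00506 and 0.00377), and the first run alone 0.31 ± 0.48 and 0.92 ± 0.58 (edgeR adjusted p = 0.734 and 0.399). With brother pool 1 included neither difference passed, with edgeR adjusted p of 0.729 and 0.743. XLOC_010657, named in the same way, is the opposite case among lower loci. It stood at 155, 151 and 179 CPM in isolated pools, at 65.1, 178 and 126 CPM in unrelated pools and at 0.127, 0.172 and 0.0612 CPM in brother pools. Unrelated pool 2 lay within the isolated range, the other unrelated pools lay under it, and all 3 brother pools were far under every other pool. Unrelated minus isolated it differed by -0.39 ± 0.27 on the log2 scale with 8 pools (SE; edgeR adjusted p = 0.431).

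A total of 2007 loci were tested with both sets of pools and passed without brother pool 1 but not with it. Among those whose 5 other courted pools all lay outside the isolated range, the largest shared changes were in loci of very few counts. XLOC_016240 had 0, 1 and 0 counts in isolated pools, 4 and 14 in brother pools 2 and 3 and 10, 3 and 7 in unrelated pools. Summed counts over the 5 courted pools were, after scaling, 22.1-fold those of the isolated pools (exact 95% interval 3.73 to 895; edgeR adjusted p = 0.0294). XLOC_010573 had 0, 3 and 0 counts in isolated pools, 7 and 14 in brother pools 2 and 3 and 15, 7 and 17 in unrelated pools, a ratio of 11.6 (exact 95% interval 3.79 to 57.9; edgeR adjusted p = 0.0259). In brother pool 1 these loci had 42 and 86 counts, more than in any other pool. With that pool included their edgeR adjusted p were 0.0869 and 0.102.

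Among lower loci of this kind, XLOC_000016 had 13, 8 and 20 counts in isolated pools and 1 to 3 counts in each of the 5 courted pools, a 5.88-fold lower sum (exact 95% interval 3.03 to 12.3; edgeR adjusted p = 0.0161). XLOC_013917 had 25, 31 and 15 counts in isolated pools and 3 to 7 in each of the 5 courted pools, a 5.56-fold lower sum (3.4 to 9.41; edgeR adjusted p = 0.00664). Brother pool 1 went the other way in both, with 43 and 36 counts, and was the highest of all 9 pools. With 9 pools the log2 changes were -1.20 ± 0.88 and -1.58 ± 0.66 (SE; edgeR adjusted p = 0.488 and 0.234). The calls of XLOC_016240 and XLOC_010573 did not hold when isolated pool 1, isolated pool 3, brother pool 3 or unrelated pool 3 was left out (edgeR adjusted p from 0.0522 to 0.117), and that of XLOC_000016 without brother pool 3 (edgeR adjusted p = 0.0611). XLOC_000016 gave no tested value without isolated pool 1 or isolated pool 3, and XLOC_016240 gave none without unrelated pool 1. The exact intervals treat each read as a separate count and do not cover the spread between pools. Reads copied from the same molecule by amplification were not told apart here, and such copies would make the intervals too narrow.

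The list was then followed pool by pool. Relative to the mean of the isolated pools, the 664 higher loci had medians of 0.29 and 0.42 log2 units in brother pools 2 and 3, and of 0.34, 0.30 and 0.31 in unrelated pools 1 to 3. Of the 716 lower loci, 713 were tested with both sets of pools, and their medians were -0.35 and -0.45 in brother pools 2 and 3 and -0.30, -0.31 and -0.35 in unrelated pools 1 to 3. Brother pool 3 was the furthest from isolation in both lists. Brother pool 1, which did not enter the choice of these loci, had medians of 0.31 and -0.36, inside the range of the other courted pools, although the isolated pools that chose the loci enter this value too. Its spread was wider. In the higher list its interquartile range was 0.759, against 0.303 to 0.436 in the other courted pools, and over all loci tested its median was -0.02 with an interquartile range of 0.73. All 6 courted pools lay outside the range of the isolated pools for 1003 of the 1377 loci tested with both sets, 481 above and 522 below, where 12.6% of all loci tested did so, 5.92% above and 6.69% below. The same pools chose these loci, so nothing is read from the gap. The isolated pools were not alike. Isolated pool 2 lay toward the courted pools in both lists, with medians of 0.08 and -0.08, while isolated pools 1 and 3 lay at -0.05 and -0.03 in the higher and at 0.03 and 0.05 in the lower list.

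**Figure D3:**
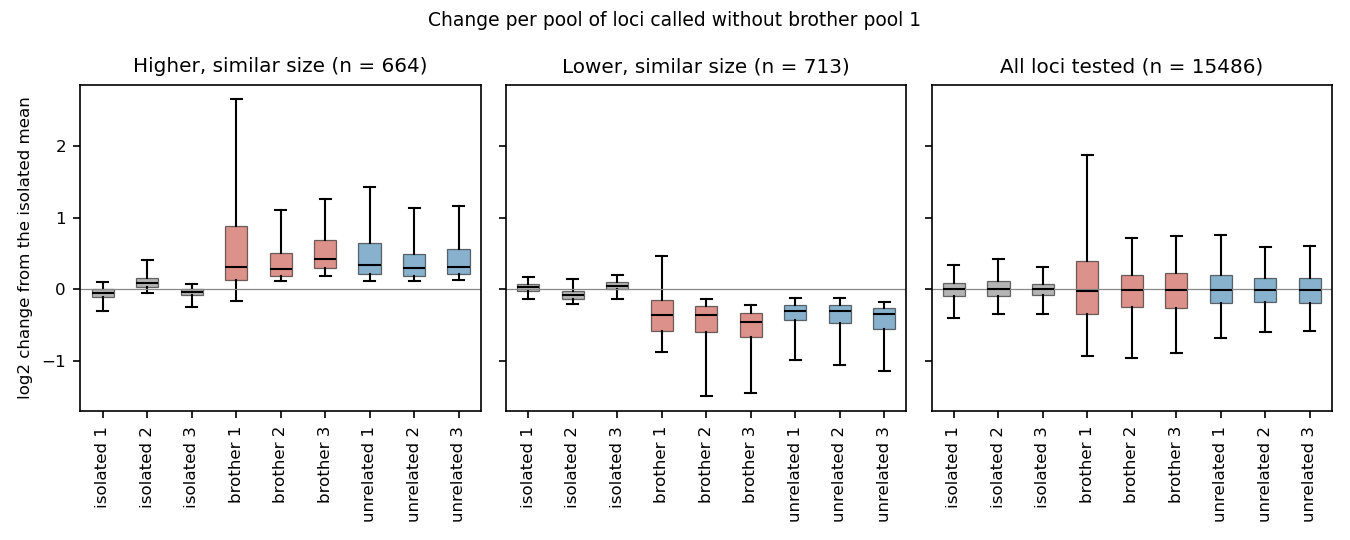
Log2 change of each pool from the mean of the isolated pools, for the loci that changed alike in the fit without brother pool 1 (higher, 664; lower, 713) and for all 15486 loci tested. Boxes span the quartiles with a line at the median and whiskers reach the 5th and 95th percentiles. The 6 courted pools are shifted by similar medians in the first 2 panels and none is shifted over all loci. The choice of loci fixes the direction in the courted pools other than brother pool 1 and favours similar sizes in both groups. TMM scaling sets the medians over all loci near 0.

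The loci that changed alike were also summed as a share of each pool's counts. The higher 664 took 6.64%, 7.57% and 6.81% of all counts in isolated pools 1 to 3, 8.83%, 8.13% and 8.66% in brother pools and 8.73%, 8.57% and 8.68% in unrelated pools. The lower loci took 6.01%, 5.85% and 6.40% in isolated pools, 4.77%, 4.61% and 4.37% in brother pools and 4.94%, 5.04% and 4.87% in unrelated pools. In both cases the 6 courted pools lay on one side of the 3 isolated pools, a direction that the choice of loci fixes.

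Calls were unevenly spread over levels of expression. The loci tested were put into 10 classes of equal size by mean CPM. With 8 pools, 4.31% of the lowest class was called and 24.8% of the highest. The direction changed with level. In the highest class, from 134 CPM up, 290 loci were higher and 96 lower after courtship. In the 5 lowest classes 158 were higher and 435 lower. This order depended in part on scaling. With library sizes unscaled, the highest class held 166 higher and 142 lower loci, and with RLE scaling 326 and 86. The size of the called changes fell with level, from a median absolute log2 change of 2.03 in the lowest class to 0.247 in the highest. With 9 pools, 0.452% of the lowest class and 1.48% of the highest were called, and in each of the 5 lowest classes at most 2 of the called loci changed alike.

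**Figure D4:**
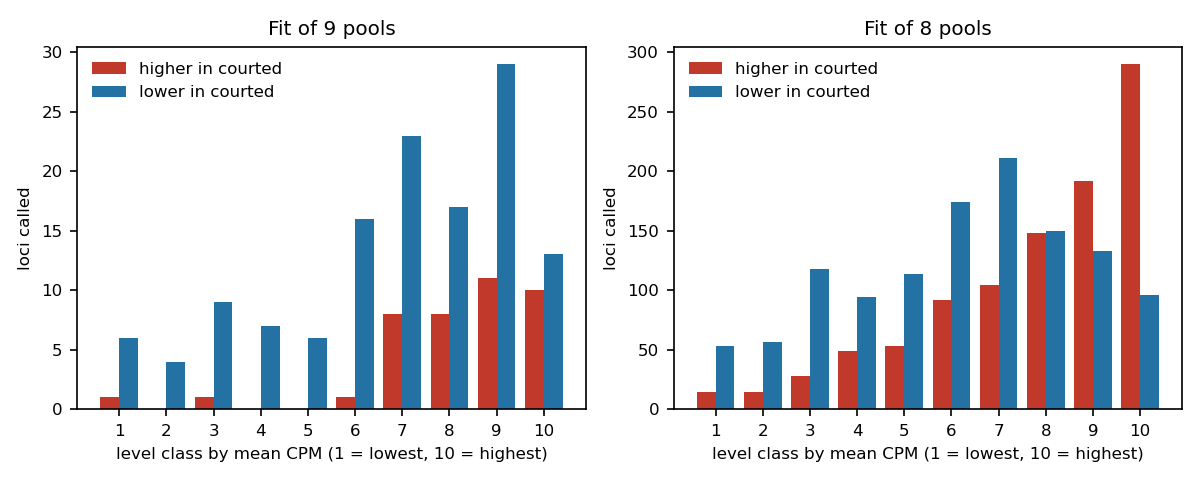
Number of loci called higher and lower in courted than in isolated pools in each of 10 classes of equal size, ordered by mean CPM, with 9 pools (left) and without brother pool 1 (right). In the right panel the lower loci outnumber the higher ones in the low classes, and the higher loci (290 against 96) outnumber the lower ones in the highest class.

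The counts rested on single pools. With 9 pools the contrast called 1 locus without isolated pool 1, 54 without isolated pool 2, 2 without isolated pool 3, 2183 without brother pool 1, 639 without brother pool 2 and 1 without brother pool 3. It called 35, 15 and 1 without unrelated pools 1, 2 and 3. After brother pool 1 had been left out, the count was 938, 2379 and 621 without isolated pools 1, 2 and 3, 2216 and 1154 without brother pools 2 and 3, and 1960, 1587 and 1313 without unrelated pools 1, 2 and 3. When all courted pools were fitted as 1 group, so that differences between the kinds of male counted as spread, 5 loci were called with 9 pools, and all 5 changed alike. With 8 pools 697 were called in that fit, of which 675 changed alike by the same measure.

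**Figure D5:**
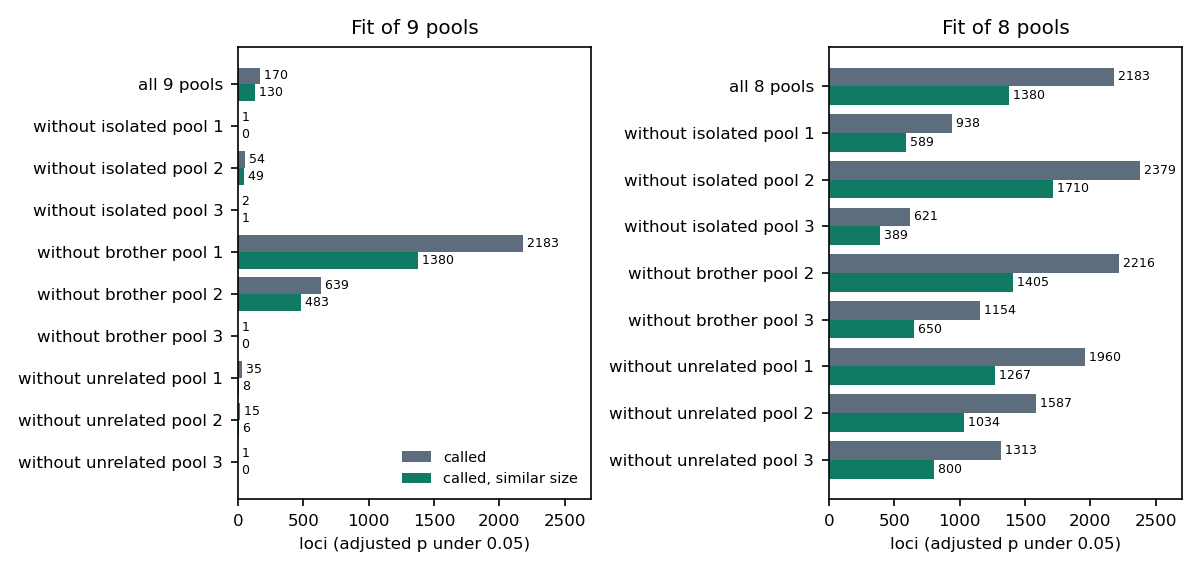
Number of loci called in the courted-minus-isolated contrast and number of these that changed alike, for all pools and with each pool left out in turn, starting from 9 pools (left) and from the 8 pools without brother pool 1 (right). Counts from 9 pools run from 1 to 2183, and counts from 8 pools from 621 to 2379.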

How the data were processed

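The authors deposited 1 table of raw counts, whole numbers per locus and library with no normalisation, for 18 libraries. Per the submitters' processing notes the tools were Trimmomatic 0.36, TopHat, Cufflinks and HTSeq, whose roles and order are not named. The genome build, the annotation and the handling of strand, overlapping loci and near-identical copies were not given in the sources used here. Counts of a locus may therefore include reads of such a neighbour. Columns were matched to samples by condition, replicate number and the letter of the second technical replicate, and technical replicates were summed to 9 pools. A floor of 3 counts was 0.029 to 0.0481 CPM per pool. The deposited counts were tested with edgeR 4.0.16 in R 4.3.3 (filterByExpr, TMM, glmQLFit, glmQLFTest), with 1 coefficient per group and the contrast of the mean of both courted groups with isolation, and p-values were adjusted over all loci tested. The standard error of a log2 change is its size over the root of the F statistic. CPM was computed with TMM-scaled sizes of all 9 pools, and 0.1 CPM was added before logs of single pools were taken. Ratios of summed counts have exact 95% conditional binomial intervals. The 8-pool fit was tested on simulated data, with 50 loci changed at each size among 15384 tested. It called 49 of those 2-fold higher and all 50 of those 4-fold higher, 2-fold lower and 4-fold lower. Of its 216 calls, 17 were false. Each locus was drawn independently in each simulated pool, so no deviation common to many loci of a pool was included. The share of false calls in the real fit can therefore not be read from these numbers. The changed loci were drawn from those above a minimum mean CPM and changed equally in both courted groups. Recovery of smaller changes, rarer loci or unequal groups was thus not tested, while 1514 of the 2183 calls with 8 pools were under 1.5-fold. DESeq2 1.42.0 and limma 3.58.1 were alternatives.

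Loci were named by rule, at most 2 higher and 2 lower per set. The first set held the largest changes shared by both groups among loci called with 9 and 8 pools. The second held the same among loci called with 8 pools and not with 9. In both sets all courted pools used had to lie outside the isolated range, so that separation was fixed by the rule. Another set held the smallest p for brother minus unrelated with 8 pools among loci called there (1 each way). The last held the highest level among loci called with 9 pools that changed alike (1 each way). The 0.5 limit, this rule, the lists and the alternatives were chosen with earlier results of these data known.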

Additional observations from a re-analysis of the deposited data

Results flagged for a closer look

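Brother pool 1 stood apart from the other 5 courted pools at 4 of the 20 items tested (the CPM of the 12 named loci, and the summed share and median change of 4 lists), by the gap to the nearest pool over the range of the 6 pools. Chance alone flags about 1 in 20 groups that were not chosen by these values. It had 0.532 CPM of XLOC_016240, 1.09 CPM of XLOC_010573, 0.545 CPM of XLOC_000016 and 0.456 CPM of XLOC_013917, and in each case it was the highest courted pool. All 4 loci were named because they were called without this pool and not with it, with the other 5 courted pools outside the isolated range. That choice favours loci at which this pool deviates, so the rate of 1 in 20 does not apply to them.

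Brother and unrelated pools differed at 2 of the named loci. Both were named for the smallest p of this contrast with 8 pools, so their passing with 8 pools was fixed by that choice. XLOC_010657 was lower after a brother than after an unrelated male by a log2 difference of -9.99 ± 0.51 (SE) with 9 pools and -10.04 ± 0.62 with 8 (edgeR adjusted p = 0.000162 and 0.000228), and 3 of 3 brother pools were below all other pools. XLOC_010798 was higher after a brother by 1.14 with 8 pools, in 2 of 2 brother pools; the 9-pool difference was 0.76 ± 0.37 (edgeR adjusted p = 0.743), and the first technical run alone did not pass (edgeR adjusted p = 0.399 with 8 pools).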

How the results depend on the processing

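Counts are given as loci called, then loci called that changed alike. With 9 pools the values of 170 and 130 became 321 and 276 with a filter of 1 CPM in 3 pools, 1456 (745 higher, 711 lower) and 1223 with DESeq2, and 3842 and 2682 with limma-voom and quality weights (0.108 for brother pool 1). They became 5 and 5 with the courted pools as 1 group. Leaving out single pools gave 1 to 2183 and 0 to 1380. The count of loci that changed alike was 0 in edgeR when isolated pool 1, brother pool 3 or unrelated pool 3 was left out, fits in which 1760, 2865 and 2436 loci had an unadjusted p under 0.05. Without brother pool 1 the values of 2183 and 1380 became 697 and 675 with the courted pools as 1 group, and 862 loci changed alike when the smaller change had to be at least 0.667 of the larger. Leaving out a further pool gave 621 to 2379 and 389 to 1710; where it left 1 brother pool, that pool was assumed to vary like the other groups. With the replicate block, 1 locus was called and 0 changed alike with 9 pools (2609 at an unadjusted p under 0.05 in edgeR), and 1049 and 670 with 8. The correlation of same-numbered pools, after group means were removed, lay between -0.339 and 0.201, and that of different-numbered pools between -0.256 and 0.38. With 3 pools per group, these values cannot tell if same-numbered pools were paired. The labels name no pairing, and the main fit took the pools as unpaired. The other alternatives (RLE or unscaled libraries, no filter, 1 technical replicate alone, the interval of brother minus unrelated within 0.5 of 0) kept the counts within 1.5 times, as did DESeq2, the quality weights and the 1 CPM filter with 8 pools. Similar counts did not always mean the same loci. With 9 pools, unscaled libraries called 172 loci, of which 121 were among the 170, whereas all 134 called with RLE scaling were. With 8 pools, 1099 loci changed alike with unscaled libraries, of which 904 were among the 1380. Unscaled libraries moved the split of the 8-pool calls from 984 higher and 1199 lower to 637 higher and 1450 lower. No named locus changed direction under the alternatives that gave it a tested value, which were 16 to 19 of 19 for loci named from 9 pools and 13 to 18 of 18 for those named from 8. The calls of all 6 loci named from 9 pools were lost with the courted pools as 1 group (edgeR adjusted p from 0.0503 to 0.0702) and with the replicate block (0.0975 to 0.128). That of XLOC_006986 was also lost with RLE scaling, no filter and either technical replicate alone (0.0514 to 0.137), and that of XLOC_014437 with RLE or unscaled libraries, no filter and the second technical replicate alone (0.0511 to 0.0874). With 8 pools the calls lost, apart from leaving out pools, were those of XLOC_016240 with the courted pools as 1 group (0.0562), XLOC_010573 and XLOC_000016 with the replicate block (0.0678 and 0.0559), XLOC_010657 for brother minus unrelated with quality weights (limma adjusted p = 0.0675) and XLOC_010798 for brother minus unrelated in the first technical replicate alone (edgeR adjusted p = 0.399). The cause of these differences was not tested. Depth limits the rarest loci, such as XLOC_016240 with 1 count over the isolated pools.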
